A study of Mus musculus with 12 samples.

Results

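Astrocytes grown as spheres (A-iSCs) were compared with all 3 other groups of the series at once, to ask which genes lay outside the range spanned by the starting astrocytes and by both kinds of neural precursor. RNA of 12 samples was sequenced, 3 in each of 4 groups, and the 3 A-iSC samples are described here against the 9 others. The labels give C57BL/6 mouse brain for all samples, and the study's methods give C57BL/6J for both NPC groups. ASTs were primary astrocytes isolated from the cerebral cortex of newborn pups, grown as a monolayer with serum and taken at day 0 of incubation. A-iSCs were such ASTs after 5 days of incubation on agarose, a surface to which cells do not attach and on which they gather into spheres. P56-NPCs were cells dissociated from the subependymal zone at postnatal day 56, and P0-NPCs were cells dissociated from the hippocampus at postnatal day 0. No introduced gene or agent is described for any group. Sorting by a marker before sequencing is not described either, so each group may hold several cell types. The study's methods speak in general of 3 independent experiments, and neither they nor the submitters' labels tie the 3 samples of a group to separate cultures or animals. The p-values therefore measure the spread between these samples, which may be technical.

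The deposited unit was FPKM, the fragments counted on a gene per kilobase of its length, scaled to a fixed library size. Genes with a mean of at least 1 FPKM in any of the 4 groups were tested, which left 16568 of 55862. Fold changes were taken on log2(FPKM + 1), a scale that understates changes of genes with low values. A gene was called above all 3 groups where limma placed it higher in A-iSCs in each of 3 comparisons (with ASTs, with P56-NPCs and with P0-NPCs), each at a Benjamini-Hochberg adjusted p under 0.05, and below all 3 groups in the same way. The 3 comparisons share the A-iSC samples and so are not independent of each other. For such a gene the smallest of the 3 log2 differences is given, that is, the distance to the nearest group.

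Astrocytes support neurons, take up glutamate and secrete lipoproteins. After injury they become reactive, a state known for high GFAP, for acute-phase proteins and for genes of the interferon response. Microglia, the macrophages of the brain, survive in monolayer cultures of astrocytes, carry Fc receptors, complement and a large lysosomal system, and share many of the immune genes that reactive astrocytes can also express. Neural precursors of the adult subependymal zone are themselves of astrocytic lineage, and Sox2 is among the transcription factors known for their maintenance.

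By means alone, A-iSCs had the highest value of the 4 groups for 2726 genes (16.5% of the tested genes) and the lowest for 2252 (13.6%). For 5511 genes (33.3%) the A-iSC mean lay between that of ASTs and those of both NPC groups, and the other 6079 (36.7%) lay at other positions. These include 158 genes whose A-iSC mean was tied with another group for the lowest. By the test, 986 genes were above all 3 groups (5.95% of the tested genes) and 533 were below all 3 (3.22%). All 3 A-iSC samples were above all 9 others in 1201 genes (7.25%) and below all 9 in 746 (4.5%). In the single comparison with ASTs limma called 49.6% of the tested genes (24.3% up and 25.2% down in A-iSCs). Against P56-NPCs it called 57.4% (28.2% and 29.2%) and against P0-NPCs 61.6% (29.6% and 32.0%). The same rule applied to the other groups called more genes, with 2740 above and 2259 below for ASTs, 2812 and 1999 for P56-NPCs, and 2740 and 2383 for P0-NPCs. Either way, 9.17% of the tested genes were at an A-iSC extreme, against 30.2% for ASTs, 29.0% for P56-NPCs and 30.9% for P0-NPCs. These counts were not tested against each other.

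**Figure D1:**
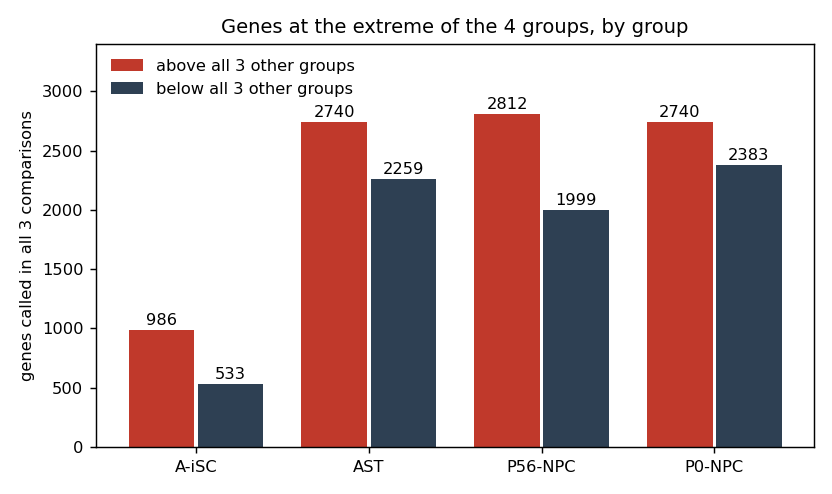
Number of genes (vertical axis) called above (red) or below (dark) all 3 other groups, for each of the 4 groups (horizontal axis), with the count on each bar. A-iSCs had 986 and 533 such genes, fewer than each of the other groups in both directions.

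The median distance to the nearest group was 0.91 on the log2 scale for the 986 genes above and -0.50 for the 533 below. A distance beyond 1 was met by 439 genes above and by 57 below, and a distance beyond 2 by 132 above and 2 below. On log2(FPKM + 1) a gene cannot lie farther below the nearest group than that group's own level, and 220 of the 533 genes below had an A-iSC mean under 1 FPKM, so distances above and below are not on an equal footing. With a pseudocount of 0.1 for the same genes the medians were 1.23 and -0.83, with 583 above and 209 below beyond 1 and 273 and 33 beyond 2. The nearest group was the AST group for 434 of the genes above, the P56-NPC group for 427 and the P0-NPC group for 125. Among the genes below it was ASTs for 245, P56-NPCs for 161 and P0-NPCs for 127. Protein-coding genes made up 877 of the genes above and 511 of those below, and long non-coding RNAs 54 and 9. For 258 of the genes above every other group had a mean under 1 FPKM, so that these passed the filter through A-iSCs alone and had to be highest there. Just inside the filter among genes highest in A-iSCs were Gm24950, Gm20707 and Gm19248 (1.0001, 1.0005 and 1.005 FPKM), and just outside it were Zfp953, Gm49888 and Zfp493 (0.998, 0.996 and 0.995 FPKM).

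The split between directions depended on the scaling between samples, and both counts depended on 1 library. Scaled only by library size, 1475 genes lay above and 287 below, or 83.7% of the calls above against 64.9% with the scaling in the deposited values. That scaling moved the median log2 difference of all tested genes to 0.12 against ASTs and 0.42 against P56-NPCs, from 0.00 and 0.02. Mitochondrially encoded genes took 17.1% of the fragments on average in P56-NPCs and 3.60 to 5.19% in the other groups. A-iSC replicate 3 stood apart from the other A-iSC samples, with a mean root mean square log2 distance to its own group of 0.467 against 0.365 and 0.344, and without it 1397 genes were above and 889 below, or 61.1% of the calls above. Depth was 17077780 to 24452419 fragments per sample.

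The genes farthest above were led by Ripply1 (ENSMUSG00000072945, chromosome X from 139779549 to 139782353), which encodes a transcriptional co-repressor known from somite formation. It had 47.8, 71.8 and 84.4 FPKM in A-iSCs, 0.221, 0.243 and 0.0664 in ASTs, 0.142, 0.0768 and 0.0749 in P56-NPCs and 0.162, 0.169 and 0.0895 in P0-NPCs. In each of the 9 other samples 1 to 4 fragments were counted, against 782, 1384 and 1836 in A-iSCs. Lack of overlap with the other samples was a condition for naming the genes farthest above and below. The log2 difference was 5.84 from ASTs (standard error 0.22), 5.94 from P56-NPCs and 5.88 from P0-NPCs, with a largest limma adjusted p of 4.03e-05. Ripply1 passed the filter through A-iSCs alone and so had to be highest there, and its p-value is no separate support. Among the A-iSC samples Ripply1 was highest in replicate 3.

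**Figure D2:**
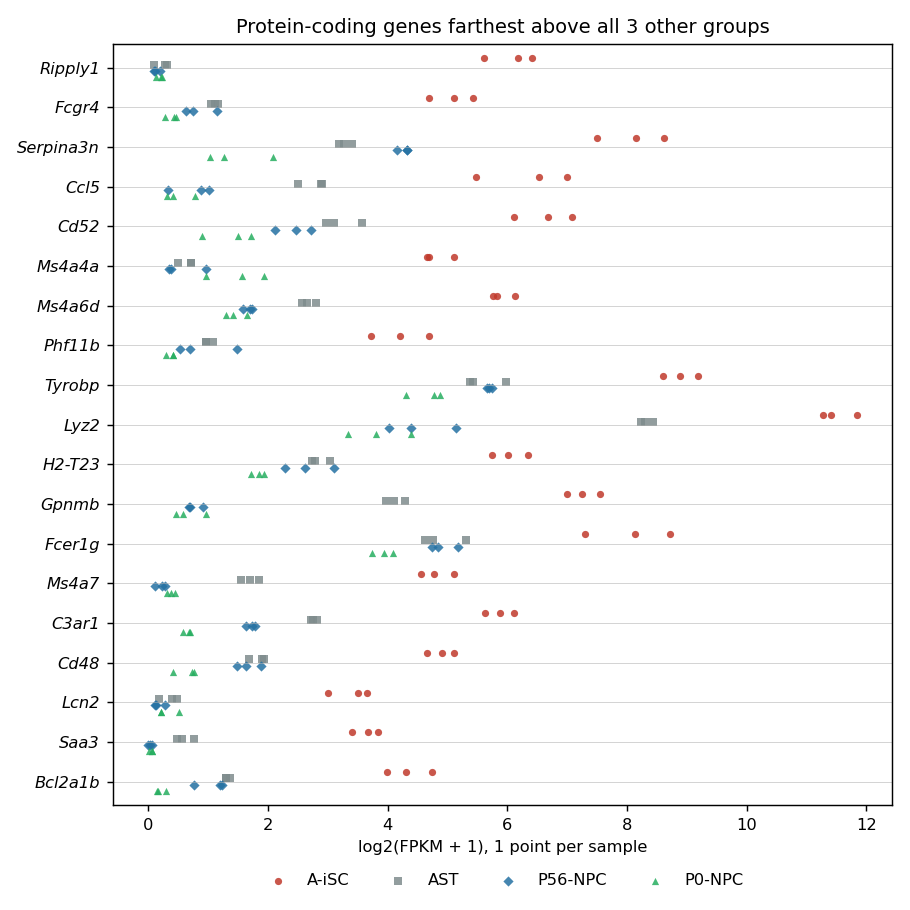
Protein-coding genes among the 20 farthest above all 3 other groups (vertical axis, ordered by distance to the nearest group), with log2(FPKM + 1) on the horizontal axis and 1 point per sample, coloured and shaped by group. In each row the 3 A-iSC points lie to the right of the 9 others, as the choice of these genes required. Distances run from 5.84 for Ripply1 to 3.03 for Bcl2a1b.

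Another 18 of the 20 protein-coding genes farthest above are given here by what they encode. Receptors and their adaptors were Fcgr4, an activating receptor for IgG (distance 3.97), Tyrobp, the adaptor DAP12 (3.19), Fcer1g, the common gamma chain of Fc receptors (3.13), C3ar1, the receptor for the complement fragment C3a (3.11), and Ms4a4a, Ms4a6d and Ms4a7 of a family of tetraspan membrane proteins (3.33, 3.23 and 3.11). Cd52 and Cd48 are surface glycoproteins of leukocytes (3.41 and 3.06). Secreted products were Serpina3n, a serine protease inhibitor (3.82), the chemokine Ccl5 (3.57), lysozyme Lyz2 (3.18), the siderophore-binding lipocalin Lcn2 (3.04) and serum amyloid Saa3 (3.04). H2-T23 (a class I molecule, 3.18), Gpnmb (a glycoprotein of lysosomes and the cell surface, 3.15), Bcl2a1b (of the anti-apoptotic BCL2 proteins, 3.03) and Phf11b (3.2) made up the rest. Bcl2a1b, Phf11b, H2-T23 and the Ms4a and Fcgr genes have close relatives with which reads may be shared, and how such reads were counted is not given in the sources used here. The largest adjusted p among these 18 genes was 0.00128, for Fcer1g.

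Lyz2 reached the highest level of these genes, with 3672, 2724 and 2475 FPKM in A-iSCs, 301, 316 and 345 in ASTs, 20.1, 15.2 and 34.5 in P56-NPCs and 9.13, 20.1 and 12.9 in P0-NPCs. The A-iSC mean was 9.22 times that of ASTs, the next group. Tyrobp had 584, 472 and 385 FPKM in A-iSCs, 40.7, 62 and 42.1 in ASTs, 52.3, 50.6 and 49.8 in P56-NPCs and 18.8, 28.3 and 26.2 in P0-NPCs. Ccl5 had 127, 91.5 and 43.5 FPKM in A-iSCs, 4.66, 6.37 and 6.45 in ASTs, 0.84, 0.26 and 1.01 in P56-NPCs and 0.729, 0.25 and 0.34 in P0-NPCs, and its A-iSC values spread by more than those of the other genes named with it in this paragraph. All 3 genes were lowest in A-iSC replicate 3 among the A-iSC samples. A-iSC replicate 1 was the highest of the 3 for 563 of the 986 genes above (57.1%), replicate 3 for 248 and replicate 2 for 175.

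Markers of microglia were also high in A-iSCs. Of 10 listed markers, 7 were called above (5.95% of all tested genes were), namely Cx3cr1, Aif1, Itgam, Ptprc, Tyrobp, C1qa and Fcrls, and all 10 were called higher than in ASTs (24.3% of all tested genes were). Their summed level was 1778 to 2371 FPKM in A-iSCs, 162 to 214 in ASTs, 544 to 569 in P56-NPCs and 96.7 to 119 in P0-NPCs, with no overlap between A-iSCs and any other group. The markers did not move by one factor. C1qa, a chain of the first complement component, had 1248, 948 and 891 FPKM in A-iSCs, 76.3, 103 and 81.8 in ASTs, 218, 196 and 226 in P56-NPCs and 40.6, 42.3 and 41.6 in P0-NPCs. Csf1r, the receptor for the growth factors on which microglia depend, had 104, 83.9 and 74.3 FPKM in A-iSCs and 77.1, 77.3 and 74.2 in P56-NPCs, and was not called against P56-NPCs (limma adjusted p = 0.284). P2ry12 and Tmem119, which mark resting microglia, were lower in A-iSCs than in P56-NPCs, at 7.19, 5.48 and 9.23 against 60.3, 59.98 and 60.3 FPKM for P2ry12 (log2 difference -2.91, limma adjusted p = 2.4e-05) and 18.4, 15.3 and 16.6 against 54.2, 49.5 and 52.9 for Tmem119 (-1.58, 2.78e-05). In these bulk samples more cells of a type and more RNA per cell cannot be told apart. The part of microglia in the results on immune and lysosomal genes that follow was not tested.

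**Figure D3:**
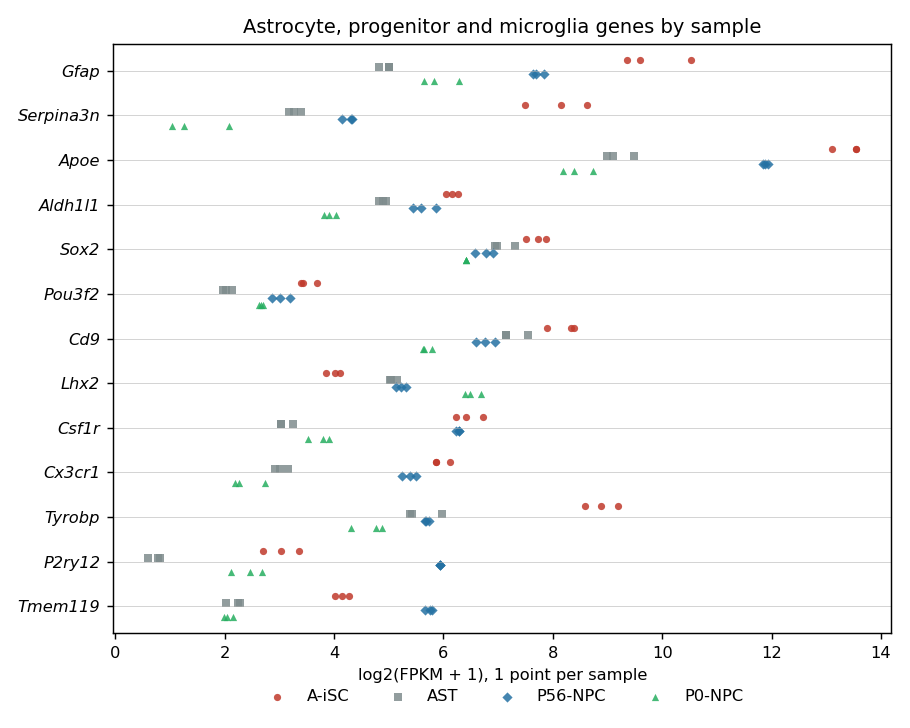
log2(FPKM + 1) (horizontal axis) of 13 genes of astrocytes, neural precursors and microglia (vertical axis), 1 point per sample, coloured and shaped by group. Gfap and Serpina3n in A-iSCs stand to the right of all other samples, while P2ry12 and Tmem119 are highest in P56-NPCs and Lhx2 is lowest in A-iSCs.

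Families of immune genes held many genes called above. These families were put together by gene symbol after their values were seen and their counts cover only members that passed the filter, in some cases through A-iSCs, so the counts are a description with no support for the family as a whole. Over all tested genes 5.95% were above. The Fc receptor family had 14 genes in the table, of which 8 were tested and called above, from Fcgr4 (3.97) to Fcgrt (0.31), which carries IgG through cells. Fcgrt was not called in 10 of 21 alternatives, which are other scalings, filters, pseudocounts and models and the comparisons without 1 library each. Called above were 5 of 5 tested Cd300 receptors (12 in the table), 7 of 8 tested Ms4a genes (of 19), 5 of 6 tested C-type lectins of groups 4, 7 and 12 (of 13) and 7 of 10 tested Toll-like receptors (of 12). Among interferon-inducible families it was 6 of 6 tested guanylate-binding proteins (of 10), 6 of 7 tested 2'-5' oligoadenylate synthetases (of 11) and 8 of 11 tested p200 genes (of 13). Tlr13, a sensor of bacterial ribosomal RNA, had 14.2, 12.4 and 14 FPKM in A-iSCs, 1.65, 1.63 and 1.76 in ASTs, 3.0, 2.72 and 2.84 in P56-NPCs and 0.345, 0.343 and 0.228 in P0-NPCs. Tlr7, an endosomal receptor for single-stranded RNA, had 17.2, 14.7 and 20.6 FPKM in A-iSCs and 6.92, 5.57 and 8.24 in P56-NPCs, the next group. Of 4 tested Siglec genes (6 in the table) 1 was called, Siglec1, a sialic acid receptor of macrophages, with 8.64, 7.82 and 9.12 FPKM in A-iSCs and 0.0726 to 0.384 elsewhere.

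The gene lists given here were chosen with earlier results of these data known. Some listed members, such as Slc16a3 of the glycolysis list, passed the filter through A-iSCs alone. The shares of lists beside those of all tested genes are therefore a description with no support of their own. Complement genes moved in both directions. Of 16 tested, 8 were above (C1qa, C1qb, C1qc, C3, C4b, C3ar1, C5ar1 and Cfp), or 50% against 5.95% of all tested genes. Cd55 and Masp1 were below, or 12.5% against 3.22%. The list's median distance over the highest other group was 0.94, against -0.63 for all tested genes, a median that includes listed genes not called. C3, the component on which all complement pathways converge, had 13.3, 17.7 and 22.8 FPKM in A-iSCs, 0.626, 0.527 and 0.586 in ASTs, 1.9, 1.95 and 2.74 in P56-NPCs and 0.17, 0.16 and 0.113 in P0-NPCs, and unlike the C1q genes it was highest in A-iSC replicate 3. C4b had 38.5, 56.8 and 40.4 FPKM in A-iSCs, 14.5, 14.7 and 15.1 in P56-NPCs and at most 1.07 in the other samples. Cd55, which accelerates the decay of complement convertases on the cell's own surface, was below all 3 groups at 0.307, 0.425 and 0.354 FPKM against 1.54, 1.86 and 1.73 in ASTs (distance -0.74, largest limma adjusted p 0.000752). Masp1, a protease of the lectin pathway, was below at a distance of -0.45, and lost its call with 2 of the scalings tried. It overlaps Rtp4, which was above, and the kit is not stated to keep strand.

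Antigen presentation by MHC class I had the highest share above of the lists other than these families, 11 of 14 tested genes (78.6%, against 5.95% of all tested genes), with a median distance of 1.35. The classical heavy chains H2-K1 and H2-D1 had distances of 2.5 and 2.82. H2-D1 had 564, 476 and 428 FPKM in A-iSCs, 65.8, 73.4 and 65.2 in ASTs, 31.7, 27.3 and 44.8 in P56-NPCs and 19.6, 15.8 and 16 in P0-NPCs. B2m, the light chain shared by all class I molecules, reached 2482, 2136 and 1617 FPKM in A-iSCs against 848, 1184 and 859 in ASTs, and the limma adjusted p against ASTs was 0.0308, a call that 6 of 21 alternatives did not make. Subunits of the immunoproteasome were also above, Psmb8 by 1.94 and Psmb9 by 1.77, as were the transporter Tap1 (0.37, lost in 8 of 21 alternatives), the chaperone Tapbp (0.86) and Nlrc5 (1.09), the transcriptional activator of class I genes. Tap1 and Psmb9 overlap, and reads from them may not be told apart. The list's summed level was 2490.1 to 3578 FPKM in A-iSCs and 1056 to 1409 in ASTs, with the lowest A-iSC sample again replicate 3, and without that sample 12 of the 14 were above.

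Of 29 interferon-stimulated genes, 19 were above all 3 groups (65.5%, against 5.95% of all tested genes) and none below (3.22% of all), and the median distance was 1.04. In the single comparisons limma placed all 29 higher than in P0-NPCs (29.6% of all tested genes were), 28 higher than in P56-NPCs (28.2%) and 20 higher than in ASTs (24.3%). Irf7, the transcription factor that amplifies interferon production, had 79.7, 65 and 40.3 FPKM in A-iSCs, 5.92, 8.41 and 6.72 in ASTs, 0.992, 0.264 and 2.09 in P56-NPCs and 1.24, 0.528 and 1.0 in P0-NPCs. Oas1a, a sensor of double-stranded RNA, had 31.6, 21.4 and 20.2 FPKM in A-iSCs and 4.49, 4.84 and 3.86 in ASTs, and Mx1, annotated as a polymorphic pseudogene, had 7.84, 5.81 and 3.4 and 0.221, 0.104 and 0.199. Ifit3, an RNA-binding antiviral protein, had 226, 193 and 169 FPKM in A-iSCs, 75.4, 87.8 and 76.7 in ASTs and at most 16.8 in the NPC groups. Not every abundant member was above. Isg15, a ubiquitin-like modifier, had 223, 179 and 120.4 FPKM in A-iSCs and 136, 229 and 133 in ASTs (limma adjusted p = 0.873), and Ifitm3, which blocks viral entry, had 648, 514 and 305 and 464, 757 and 468 (0.623). For both genes the A-iSC and AST samples overlapped.

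The promoters of interferon-stimulated genes are known to carry the interferon-stimulated response element, to which STAT and IRF proteins bind. RefSeq promoter windows, 250 bases before to 50 after the gene start on GRCm38.p6, were at hand for 12 of the 19 genes above, and 7 of the 12 held the letters GAAANNGAAA or their reverse complement TTTCNNTTTC, against 3.0% of the windows of all tested genes. The antigen presentation genes called above held it in 2 of 10 windows. Only 739 of the 986 genes above (74.9%) and 68.2% of all tested genes had a window, which is too few to compare sets of genes, so these shares are a description and nothing is drawn from their difference. The stretches around the element, 5′ to 3′ on the gene's strand, are shown for 4 genes of this list and for B2m, as examples of stretches that hold it, with every match in capitals.
Ifit1, chr19:34640764-34640853, plus strand: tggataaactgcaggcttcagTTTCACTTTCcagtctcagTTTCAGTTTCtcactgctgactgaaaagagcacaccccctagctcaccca
Ifit3, chr19:34583367-34583456, plus strand: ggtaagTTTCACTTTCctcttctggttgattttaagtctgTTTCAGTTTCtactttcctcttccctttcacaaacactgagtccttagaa
Oas1a, chr5:120907526-120907579, minus strand: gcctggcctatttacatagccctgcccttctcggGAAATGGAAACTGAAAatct
Gbp3, chr3:142559965-142560043, plus strand: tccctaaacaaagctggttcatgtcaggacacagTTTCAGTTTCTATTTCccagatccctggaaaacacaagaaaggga
B2m, chr2:122147508-122147597, plus strand: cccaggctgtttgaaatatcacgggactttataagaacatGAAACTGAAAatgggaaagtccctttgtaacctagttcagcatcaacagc
The match nearest to the gene start began 85 bases before the start of Ifit1, 122 before that of Ifit3, 14 before that of Oas1a, 39 before that of Gbp3 and 139 before that of B2m. The stretches of Ifit1 and Ifit3 held 2 separate matches, those of Gbp3 and Oas1a 2 that overlap, and that of B2m 1. The match is of letters alone and is no measure of binding.

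Lysosomal genes were above in 17 of 29 cases (58.6%, against 5.95% of all tested genes) and below in none (3.22% of all), with a median distance of 0.73. Ctsd, the protease cathepsin D, had 2392, 1839 and 1671 FPKM in A-iSCs, 612, 677 and 639 in ASTs, 203, 189.7 and 217 in P56-NPCs and 85.7, 75.8 and 88.1 in P0-NPCs. Ctsb, cathepsin B, had 1055, 847 and 827 FPKM in A-iSCs and 169, 163 and 177 in ASTs. In the cathepsin family 9 of 12 tested members (18 in the table) were above, or 75% against 5.95% of all tested genes, among them Ctss, a protease of antigen-presenting cells that is not on the lysosome list, at 1046, 906 and 982 FPKM against 67.3, 80.04 and 78.2 in ASTs and 238, 215 and 248 in P56-NPCs. Psap, the precursor of the saposins that activate lipid hydrolases, was above by 0.44 only (1029, 1055 and 1089 FPKM in A-iSCs, 784, 813 and 746 in P56-NPCs) and lost its call in 6 of 21 alternatives. Lipa, which hydrolyses cholesteryl esters in lysosomes, was at a distance of 1.41. Atp6v0d2, a subunit of the proton pump, had 10.8, 8.36 and 6.67 FPKM in A-iSCs, 0.307, 0.436 and 0.416 in ASTs and was listed at 0 in all P56-NPC samples. The list summed to 6445 to 7697 FPKM in A-iSCs and to 3058 to 3061 in ASTs.

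Genes of lipid handling were above in part. Among 18 targets of the sterol-sensing LXR receptors and other lipid genes, 5 were above (27.8%, against 5.95% of all tested genes) and none below, namely the cholesterol exporter Abca1 (1.32), the ubiquitin ligase Mylip that removes LDL receptors (1.22), the lipase Lpl (1.84), the fatty acid receptor Cd36 (2.06) and Cpt1a of mitochondrial fatty acid import (0.52, lost in 6 of 21 alternatives). The count above was 3 without A-iSC replicate 2 and 8 with scaling by library size. Abca1 had 32.9, 39 and 89.7 FPKM in A-iSCs, with replicate 3 far above the other samples of its group, and 23.1, 13.5 and 21.7 in ASTs, and 6 of 21 alternatives did not call it. Of 22 tested genes of cholesterol synthesis none was above, 18 were not called and 4 were below (18.2%, against 3.22% of all tested genes), among them Mvk (-0.53, lost in 2 of 21 alternatives), Lss (-0.37, lost in 6 of 21 alternatives) and Insig1 (-0.72), a sterol-sensing regulator. The list's median difference from the lowest other group was 0.07, against 0.45 for all tested genes, and its summed level was 313 to 361 FPKM in A-iSCs, 322 to 335 in P0-NPCs, 470.2 to 496 in P56-NPCs and 542 to 595 in ASTs, so that A-iSCs and P0-NPCs overlapped. Insig1 had 20.6, 15.5 and 22.7 FPKM in A-iSCs, 51.9, 49.8 and 52.6 in ASTs, 51.4, 53.2 and 45.7 in P56-NPCs and 36.1, 27.2 and 34.9 in P0-NPCs. With scaling by library size alone only 1 of the 22 was below, 2 were below without AST replicate 1 or without AST replicate 3, and Insig1 kept its call in all 21 alternatives.

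Reactive and mature astrocyte genes did not go together. Of 28 tested genes listed for reactive astrocytes, 15 were above (53.6%, against 5.95% of all tested genes) and 1 below (3.57%, close to the 3.22% of all), and the list's median distance was 0.64. C3 is also on the complement list and Cxcl10, which lost its call in 5 of 21 alternatives, is also an interferon-induced chemokine, and some members, such as Gbp2 and Srgn, are expressed by immune cells too. Gfap (ENSMUSG00000020932, chromosome 11 from 102887336 to 102900912), the intermediate filament of astrocytes, had 658, 769 and 1483 FPKM in A-iSCs, 31.1, 27.2 and 31.3 in ASTs, 207, 198 and 228 in P56-NPCs and 49.3, 77 and 55.6 in P0-NPCs, a log2 difference of 2.1 from P56-NPCs (standard error 0.31, limma adjusted p = 0.00144). Serpina3n had 179, 283 and 393 FPKM in A-iSCs, 8.09, 8.65 and 9.6 in ASTs, 16.8, 18.9 and 19.1 in P56-NPCs and 1.4, 3.25 and 1.06 in P0-NPCs. S1pr3, a receptor for sphingosine 1-phosphate, had 68.8, 67.9 and 73.8 FPKM in A-iSCs, 9.07, 9.58 and 9.72 in ASTs, 3.14, 1.95 and 3.28 in P56-NPCs and 6.01, 6.91 and 6.26 in P0-NPCs, and the oncostatin M receptor Osmr 5.77, 7.12 and 8.38 FPKM in A-iSCs against 1.89, 1.51 and 1.61 in ASTs. Gfap, Serpina3n and Osmr were highest in A-iSC replicate 3, and the count of 15 was the same without that sample. Amigo2, a cell adhesion molecule, was below (-0.48), a call that 5 of 21 alternatives did not make. Other listed genes were highest in ASTs, such as Vim (1243, 1131 and 741 FPKM in A-iSCs, 1926, 2724 and 1908 in ASTs) and the protease inhibitor Timp1 (52.4, 38.4 and 34.2 against 321, 423 and 309). The summed level of the whole list was 2673 to 3164 FPKM in A-iSCs and 3278 to 4439 in ASTs.

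Of 30 genes of mature astrocytes only 2 were above, Apoe and Aldh1l1, and 1 was below, Mfge8, which lost its call in 10 of 21 alternatives. The count above was 4 with library-size scaling, 3 without A-iSC replicate 3, 1 without the filter, where Apoe was not called, and 1 without P56-NPC replicate 1, where Aldh1l1 was not. At 6.67% the share above was close to the 5.95% of all tested genes. Compared with ASTs, 23 of the 30 were higher in A-iSCs (24.3% of all tested genes were), and compared with P56-NPCs 24 were lower (29.2% of all). Apoe (ENSMUSG00000002985, chromosome 7 from 19696109 to 19699188), the main lipoprotein of the brain, had 11922, 11939 and 8835 FPKM in A-iSCs, 509.9, 711 and 547 in ASTs, 3664, 3892 and 3777 in P56-NPCs and 333, 426 and 291 in P0-NPCs. It was thus above all other groups by 1.51 (largest limma adjusted p 0.00333). Aldh1l1, a folate enzyme, had 64.8, 76.4 and 70.7 FPKM in A-iSCs, 29.8, 27.2 and 28.7 in ASTs, 47.5, 57 and 42.5 in P56-NPCs and 14, 15.3 and 13.1 in P0-NPCs and was above P56-NPCs by 0.53 (limma adjusted p = 0.0137). Typical of the others was the glycolytic enzyme Aldoc, with 299, 439 and 480.5 FPKM in A-iSCs, 12.8, 14.2 and 12.1 in ASTs and 1116, 1254 and 1131 in P56-NPCs. The 5 astrocyte markers summed to 825 to 1768 FPKM in A-iSCs, 106 to 121 in ASTs and 899 to 961 in P56-NPCs. Gfap made up most of the A-iSC sums but not of the P56-NPC sums, so these sums do not describe the other markers. Compared with P56-NPCs, 2 of the 5 were called higher and 2 lower (28.2% and 29.2% of all tested genes were).

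Stem and progenitor genes were above in 4 of 26 cases (15.4%, against 5.95% of all tested genes) and below in 1 (3.85%, close to the 3.22% of all), and the median distance over the highest other group was -1.18. Sox2 had 210.4, 234 and 180.5 FPKM in A-iSCs, 126, 158 and 122 in ASTs, 109, 119 and 94 in P56-NPCs and 84.8, 84.4 and 84.3 in P0-NPCs, a distance of 0.62 (largest limma adjusted p 0.0209) that 5 of 21 alternatives did not call. Sox2 lies inside Sox2ot, a long non-coding RNA, and without strand their reads cannot be told apart. The neural POU factor Pou3f2 (0.48, lost in 3 of 21 alternatives) and the tetraspanin Cd9 (0.93) were also above. Pou3f2 had 9.56, 9.79 and 11.9 FPKM in A-iSCs and 7.06, 8.12 and 6.34 in P56-NPCs. Lhx2 (ENSMUSG00000000247, chromosome 2 from 38339281 to 38369733), a LIM-homeodomain factor of cortical and hippocampal precursors, was below, with 15.3, 13.4 and 16.3 FPKM in A-iSCs, 31.8, 34.5 and 32.1 in ASTs, 36.3, 34 and 39 in P56-NPCs and 88.8, 83.7 and 103 in P0-NPCs (distance -1.08, largest limma adjusted p 0.000355). Nes, an intermediate filament of precursors, lay inside the range, at 72.2, 73.7 and 64.4 FPKM in A-iSCs against 209, 183 and 195 in ASTs and 3.91, 3.48 and 3.9 in P56-NPCs.

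Of 25 targets of the hypoxia-inducible factors 6 were above (24%, against 5.95% of all tested genes) and none below (3.22% of all), with a median distance of -0.13. Vegfa (ENSMUSG00000023951, chromosome 17 from 46016993 to 46032369), the vascular growth factor, had 42.9, 73.7 and 41.2 FPKM in A-iSCs, 17.2, 14.7 and 15.2 in ASTs, 24.3, 24 and 21.8 in P56-NPCs and 19.2, 15 and 13.7 in P0-NPCs. Egln3, an oxygen-sensing prolyl hydroxylase, had 19.98, 24.2 and 34.6 FPKM in A-iSCs, 7.46, 7.45 and 7.5 in ASTs, 3.25, 3.35 and 4.36 in P56-NPCs and 3.73, 4.52 and 4.05 in P0-NPCs. Bnip3, which acts in mitophagy, the lipid droplet protein Plin2, the glycolytic regulator Pfkfb3 and Ankrd37 were above by 0.52, 0.72, 0.63 and 0.86, and Bnip3 lost its call in 5 of 21 alternatives and Ankrd37 in 3 of 20. The lactate transporters Slc16a3 and Slc16a1, on the glycolysis list, were above by 2.2 and 1.05, as was the phosphofructokinase Pfkl (0.66, lost in 5 of 21 alternatives), while Hk1 was below (-0.34, lost in 8 of 21). Slc16a3 had 6.27, 6.86 and 8.77 FPKM in A-iSCs, 0.606, 0.584 and 0.638 in ASTs, 0.932, 0.644 and 0.822 in P56-NPCs and 0.485, 0.226 and 0.451 in P0-NPCs. Slc2a1, the glucose transporter, was higher in A-iSCs (36.6, 42 and 40.9 FPKM) than in ASTs (28.1, 28.9 and 27.4) and lower than in P56-NPCs (49.97, 50.6 and 49.1). The core of the hypoxia response element, ACGTG, is short and stood in 24.8% of the windows of all tested genes. It, or its reverse complement CACGT, was in 5 of the 6 windows of the genes above, a description from which nothing is drawn. Pfkfb3 and Bnip3 are shown as examples, with every match in capitals (in Bnip3 both orientations overlap).
Pfkfb3, chr2:11553945-11554029, minus strand: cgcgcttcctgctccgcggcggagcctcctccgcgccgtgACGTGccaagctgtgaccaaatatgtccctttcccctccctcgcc
Bnip3, chr7:138909569-138909653, minus strand: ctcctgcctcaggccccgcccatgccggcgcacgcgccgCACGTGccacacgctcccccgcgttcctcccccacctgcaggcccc

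Growth factors and chemokines gave single genes on either side, and early response genes a pair above. Igf1, made by microglia and known to support precursors, had 30.5, 24.2 and 18 FPKM in A-iSCs, 4.48, 5.75 and 4.62 in ASTs, 0.128, 0.113 and 0.153 in P56-NPCs and 1.09, 1.33 and 1.02 in P0-NPCs. Vegfc was below (-0.37) and lost its call in 7 of 20 alternatives. Of 20 tested growth factors Igf1 was the only one above and Vegfc the only one below. These shares were 5% each, against 5.95% above and 3.22% below of all tested genes. Among 22 chemokines and cytokines 5 were above, Ccl5, Ccl12, Cxcl16, Il1a and Il1b (22.7%, against 5.95% of all tested genes), and 2 were below, Cxcl12 and Il34 (9.09%, against 3.22%). Ccl12 lost its call in 7 of 21 alternatives and Il34 in 6 of 20. Cxcl12, which guides migrating precursors, had 0.595, 0.545 and 0.525 FPKM in A-iSCs, 13.6, 11.6 and 13.8 in ASTs, 1.31, 1.14 and 1.9 in P56-NPCs and 18.8, 17.8 and 17.4 in P0-NPCs. The cytokine Il34 is a ligand of the receptor Csf1r and was at 1.42, 1.01 and 0.857 FPKM in A-iSCs and 4.02, 4.2 and 3.68 in ASTs. Of 22 BMP, TGF-beta and Id genes 3 were above (13.6%, against 5.95%) and 1 below (4.55%, near the 3.22% of all). Tgfb1 (1.43), Tgfbi (1.26) and Id2 (0.40, lost in 9 of 21 alternatives) were above and Bmp4 was below (-0.70), at 0.839, 0.898 and 0.498 FPKM against 14.3, 15.6 and 14.3 in ASTs. Fos and Junb, subunits of the transcription factor AP-1 that respond within minutes to handling and stimulation, were above by 1.21 and 1.45, and were lowest in replicate 3 among the A-iSC samples. Without the filter Fos lost its call. Of 22 immediate early genes these 2 were above (9.09%, near the 5.95% of all tested genes), and 6 without that replicate. Of 24 stress response genes Atf3 and Dnajb9 were above (1.6 and 0.48, Dnajb9 lost in 10 of 21 alternatives), or 8.33%, near the 5.95% of all tested genes. Compared with ASTs, 3 of the 24 were higher and 12 lower (24.3% and 25.2% of all tested genes were). The stress list summed to 1019 to 1201 FPKM in A-iSCs and 1558 to 1770 in ASTs. The antioxidant genes Gclc (0.79), Srxn1 (0.35, lost in 2 of 21 alternatives) and Gsta4 (0.65, lost in 7 of 21 alternatives) were above. Of 18 cyclins and related cell cycle regulators only Rb1 was above (0.47), or 5.56%. Of 24 metallothionein and antioxidant genes, 14 had their highest mean in A-iSCs (16.5% of all tested genes did). The count above was 3 in the main comparison, 10 with scaling by library size, 8 without A-iSC replicate 3 and 1 without AST replicate 3, against 5.95, 8.9, 8.43 and 5.03% of all tested genes.

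**Figure D4:**
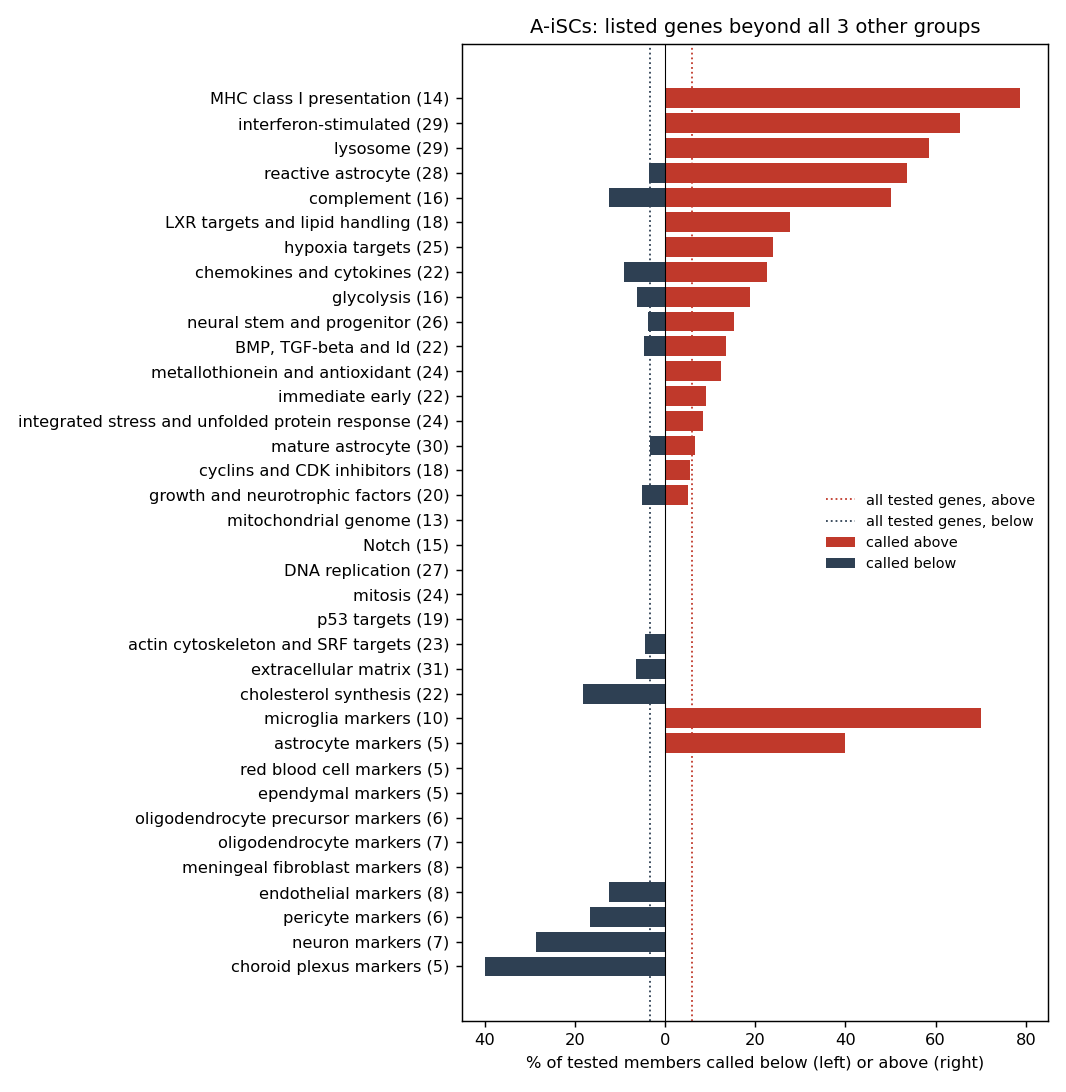
Percentage of the tested members of each list or marker set (vertical axis, number tested in brackets) called below (left, dark) or above (right, red) all 3 other groups in A-iSCs. The dotted lines mark the shares among all tested genes (5.95% above, 3.22% below), and MHC class I presentation, microglia markers, interferon-stimulated genes and lysosome extend farthest to the right.

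Genes of division and p53 targets had no calls at an A-iSC extreme in the main comparison, nor had Notch or mitochondrially encoded genes. None of 24 mitosis genes, 27 DNA replication genes, 19 p53 targets, 15 Notch genes or 13 mitochondrially encoded genes was above or below all 3 groups by limma, nor by limma-voom on recovered fragments. Of all tested genes 9.17% were at an A-iSC extreme either way, so lists of these sizes hold few such genes at that share, and nothing is read from the counts of 0. At an unadjusted p under 0.05 in each comparison the count was 1 for the Notch list and 0 for the other 4. In other settings Notch genes were called, with 2 above for all groups in 1 model, 1 above with either library-size scaling, and 1 below with upper-quartile scaling or without A-iSC replicate 3, and without that replicate 1 DNA replication gene was below. All 24 mitosis genes were lower than in ASTs (25.2% of all tested genes were) and 17 were higher than in P56-NPCs (28.2% of all). Mki67, a marker of dividing cells, had 3.91, 3.69 and 4.1 FPKM in A-iSCs, 14.9, 15.7 and 14.6 in ASTs, 1.48, 1.75 and 1.36 in P56-NPCs and 11.1, 8.19 and 11.6 in P0-NPCs, and so lay inside the range. Of the 19 p53 targets 15 were lower than in ASTs and 16 higher than in P56-NPCs (again beside 25.2% and 28.2% of all tested genes), among them the cell cycle inhibitor Cdkn1a with 75.2, 75.7 and 57.9 FPKM in A-iSCs, 238, 217 and 232 in ASTs and 10.7, 7.17 and 14.1 in P56-NPCs.

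The genes farthest below were led by Sema7a (ENSMUSG00000038264, chromosome 9 from 57940112 to 57962865), a membrane-anchored semaphorin that promotes axon growth. It had 2.15, 1.77 and 2.3 FPKM in A-iSCs, 37.1, 29.4 and 34.6 in ASTs, 13.8, 15 and 14 in P56-NPCs and 21.8, 20.5 and 20.7 in P0-NPCs. The lack of overlap was a condition for naming it. Sema7a lay -3.49 from ASTs, -2.31 from P56-NPCs (standard error 0.10) and -2.84 from P0-NPCs (largest limma adjusted p 4.03e-05). Tceal5 was the only other gene at a distance beyond -2 (-2.12), with 1.69, 1.47 and 3.1 FPKM in A-iSCs, 28.9, 40.02 and 30.2 in ASTs, 16.1, 17 and 15.5 in P56-NPCs and 10.9, 14.1 and 11.4 in P0-NPCs. Smpd3, the neutral sphingomyelinase that makes ceramide, had 0.74, 0.691 and 1.08 FPKM in A-iSCs, 6.98, 5.47 and 7.03 in ASTs, 5.73, 7.31 and 5.89 in P56-NPCs and 9.09, 12.4 and 10.2 in P0-NPCs (distance -1.99). Its locus overlaps that of Prmt7.

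The rest of the 20 protein-coding genes farthest below are given by what they encode. Proteins of calcium signalling were Ncs1, a neuronal calcium sensor (-1.51), Adcy1, a calcium-stimulated adenylyl cyclase (-1.76), and Kcnip1, a calcium-binding subunit of potassium channels (-1.71). Kcnip1 had 0.197, 0.20 and 0.177 FPKM in A-iSCs and 2.61 to 4.37 in the other samples, with the caveat that it overlaps Kcnmb1. Syt13, of the synaptotagmins (-1.53), Fgf13, an intracellular partner of sodium channels (-1.4), and the ephrin Efna3 (-1.36) were also among them. Bhlhe22, a transcription factor of cortical neurons, had 0.134, 0.189 and 0.212 FPKM in A-iSCs, 2.5, 2.86 and 2.53 in ASTs, 3.05, 3.35 and 3.0 in P56-NPCs and 32.1, 36.1 and 35.3 in P0-NPCs. Trnp1, a nuclear protein known from cortical expansion, had 1.26, 1.32 and 0.677 FPKM in A-iSCs and 4.29, 5.87 and 4.92 in ASTs. Cavin2 of the caveolae (-1.86), Acot7, an acyl-CoA thioesterase (-1.85), Prr5, a subunit of mTORC2 (-1.7), Mical2, which oxidises actin (-1.56), Amot, a scaffold of cell junctions (-1.4), and Gstm7, a glutathione transferase (-1.56), were below too. Ndrg4 (-1.5), Lypd6 (-1.45) and Prr32, which was listed at 0 in all A-iSC samples and at 1.16 to 8.78 FPKM elsewhere, completed the 20.

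**Figure D5:**
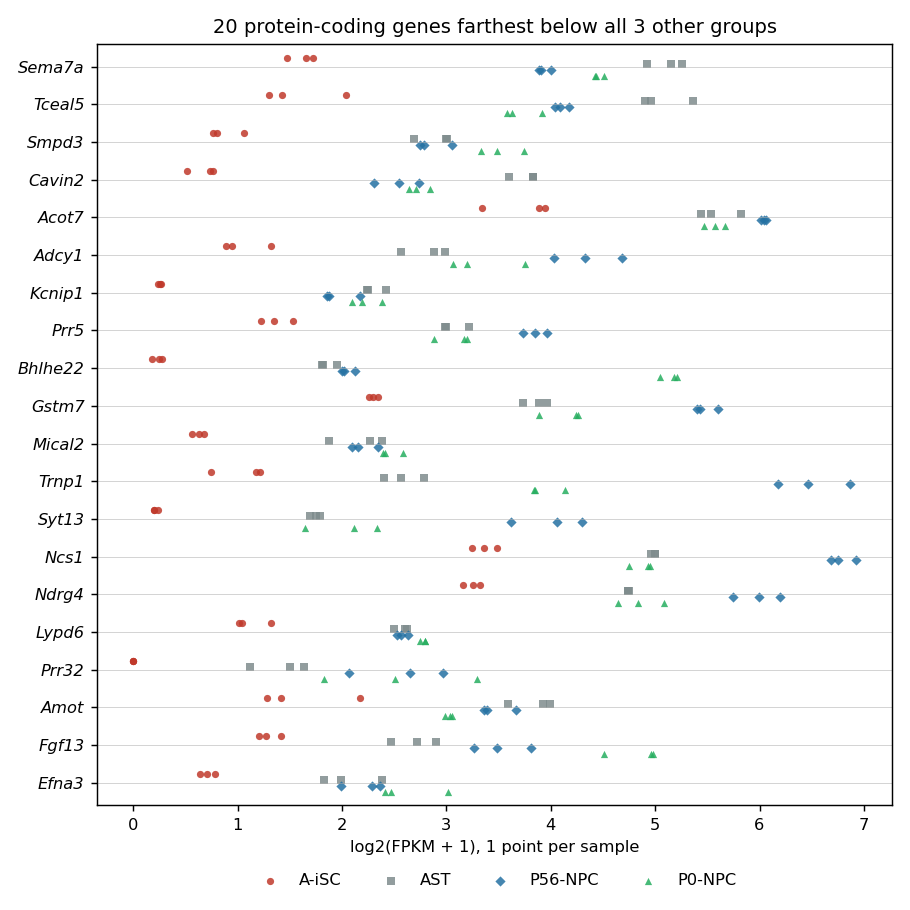
The 20 protein-coding genes farthest below all 3 other groups (vertical axis, ordered by distance to the nearest group), with log2(FPKM + 1) on the horizontal axis and 1 point per sample, coloured and shaped by group. In each row the 3 A-iSC points lie to the left of the 9 others, as the choice of these genes required. Distances run from -2.31 for Sema7a to -1.36 for Efna3.

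Some families with genes below, again chosen after their values were seen, also held genes above. Over all tested genes 3.22% were below and 5.95% above. Gstm4, Gstm6 and Gstm7 of 6 tested glutathione transferases of class mu were below, and reads may be shared between them. Of 10 Bex and Tceal genes, neuronal adaptor proteins clustered on the X chromosome, Tceal5, Bex1 and Bex3 were below. Bex1 had 6.94, 5.99 and 5.91 FPKM in A-iSCs, 46.9, 72.7 and 46.2 in ASTs, 14.9, 17 and 14.3 in P56-NPCs and 31.2, 35.9 and 34.7 in P0-NPCs (distance -1.17). The call of Bex3 (-0.32) depended on the scaling, as its difference from P56-NPCs turned to 0.24 with library size alone. Of 9 tested laminins of the basement membrane Lamb1 and Lama2 were below and none above, Lamb1 with 0.355, 0.377 and 0.308 FPKM in A-iSCs, 17.1, 15.3 and 16.5 in ASTs and 2.03, 1.83 and 2.07 in P56-NPCs. Of 33 tested collagens Col1a2, Col6a3 and Col8a2 were below and Col16a1 (0.72) and Col9a1 (0.42) above. Of 19 tested semaphorins Sema7a, Sema4f and Sema5a were below and Sema6a (0.64) above, and of 14 tested synaptotagmins Syt13 and Syt1 were below and Syt6 (0.96) above. Col8a2 and Sema5a lost their calls in 4 of 21 and 4 of 20 alternatives and Sema4f in 7 of 21. On the extracellular matrix list 2 of 31 genes were below, Col1a2 (-1.05) and Col6a3 (-0.28, lost in 5 of 20 alternatives), a share of 6.45% against 3.22% of all tested genes, and 29 of the 31 were lower than in ASTs (25.2% of all tested genes were). Markers of meningeal fibroblasts, cells known for making matrix, also summed to less in A-iSCs than in ASTs, at 23 to 27 against 143 to 189 FPKM, and 4 of these 8 markers were called lower and 1 higher. Dcn, Lum, Col1a1 and Col3a1 are on both lists. The part of such cells in the matrix counts was not tested. Srf, the transcription factor of the actin cytoskeleton, was the only one of 23 genes of its list below (-0.38, 4.35% against 3.22% of all tested genes), and 8 of 21 alternatives did not call it.

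Markers of other cell types of the brain gave sums both lower and higher in A-iSCs than in ASTs. Over all tested genes 3.22% were below, and the sets hold few genes. Of 7 neuron markers Stmn2 (-1.25) and Syt1 (-0.23) were below, and the 7 summed to 50.6 to 66.4 FPKM in A-iSCs, 88.1 to 124 in ASTs and 852 to 1030.3 in P0-NPCs. Although the sum was lower than in ASTs, 3 of the 7 were called higher and 2 lower (24.3% and 25.2% of all tested genes were). With all 4 groups in 1 model Syt1 lost its call. Of 5 choroid plexus markers Ttr (-0.93) and Aqp1 (-0.81) were below, with a sum of 2.49 to 3.19 FPKM in A-iSCs against 5.24 to 7.28 in ASTs. That sum was 1490 to 3174 FPKM in P56-NPCs and 743 to 3833 in P0-NPCs. Neither Ttr nor Aqp1 was called with all 4 groups in 1 model, and Ttr also lost its call without the filter and without AST replicate 3. Slco1a4 of 8 endothelial and Pdgfrb of 6 pericyte markers were below, calls lost in 2 of 20 and in 1 of 21 alternatives, all of them library-size scalings. The sums were 2.59 to 3.81 and 3.93 to 5.34 FPKM in A-iSCs against 5.62 to 6.09 and 9.76 to 12.5 in ASTs. In P56-NPCs they were 5.38 to 5.86 and 11.5 to 12.1 FPKM, and in P0-NPCs 74.7 to 78 and 115 to 131. Compared with ASTs, 1 endothelial marker was called higher and 2 lower, but 3 pericyte markers were called higher and 1 lower. Markers of oligodendrocytes summed to 15.5 to 16.4 FPKM in A-iSCs, 0.842 to 1.01 in ASTs and 11016 to 12592 in P56-NPCs, and 5 of 7 were higher than in ASTs (24.3% of all tested genes were). Those of oligodendrocyte precursors summed to 125 to 148 FPKM in A-iSCs, 81.4 to 101.2 in ASTs and 490.2 to 495 in P56-NPCs, and those of ependymal cells to 59.9 to 72.5, 49.1 to 62.3 and 227 to 299, where the A-iSC and AST ranges overlap. In A-iSCs, P56-NPCs and P0-NPCs, those of red blood cells summed to at most 0.548, to 359.99 to 565 and to 163 to 338 FPKM. Those of meningeal fibroblasts, given with the matrix genes for A-iSCs and ASTs, summed to 532 to 716 in P56-NPCs. None of these last 5 sets held a gene above or below all 3 groups by limma in the main comparison, and 1 meningeal marker was below at an unadjusted p under 0.05 in each comparison. In other settings 1 oligodendrocyte precursor marker was above with scaling by library size alone, and 1 meningeal marker was below with upper-quartile scaling. The part of neurons in the genes farthest below was not tested.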

How the data were processed

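RNA from 12 samples was sequenced by the authors on an Illumina instrument from NEBNext Ultra libraries, and the deposited values are FPKM per gene, with no counts. The submitters' processing notes name Bowtie 0.12.2 and mm8. The gene positions in the table instead match GRCm38, in 54985 of the 55240 gene identifiers shared with GENCODE M21, and positions are given on GRCm38. How reads shared between genes were counted is not given in the sources used here.

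FPKM multiplied by gene length gave whole fragments for 100% of the values in each sample (tolerance 0.01), which provided the depth of 17077780 to 24452419 fragments. At that depth 3 fragments on a gene of 1 kb equal 0.103 to 0.187 FPKM, a limit that covers counting error only.

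Genes with a mean of at least 1 FPKM in any group were kept. Each pair of groups was fitted on log2(FPKM + 1) with limma 3.58.1 in R 4.3.3 (trended prior, two-sided tests) and p-values were adjusted by Benjamini-Hochberg over all tested genes. The scripts were tested on simulated data. Other scalings, filters, pseudocounts, models and thresholds were tried, as was leaving out each sample. Tables were handled in Python 3.11.15 with numpy 2.4.6 and pandas 2.3.3, and drawn with matplotlib 3.10.9.

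The genes named are the 20 protein-coding genes farthest above and the 20 farthest below all other groups, among those called in all 3 comparisons with no overlap between A-iSC and other samples, and members of gene lists. Some genes that this rule names are not reported here, though counts and medians include them. The comparison and the lists were chosen with earlier results of these data known, and the gene families were chosen after their values were seen.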

Additional observations from a re-analysis of the deposited data

How the results depend on the processing

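Against 986 genes above and 533 below all 3 groups, library-size scaling gave 1475 and 287, library size without mitochondrially encoded genes 1384 and 322, upper-quartile scaling 906 and 590, no filter 945 and 442, a minimum mean of 5 FPKM 636 and 387, a pseudocount of 0.1 976 and 538, all groups in 1 model 1205 and 610, and limma-voom 975 and 555. A log2 difference beyond 1 left 439 and 57, an adjusted p under 0.01 left 639 and 259, and adjusting the largest of the 3 p-values left 349 below. Leaving out 1 library gave 780 to 1397 above and 363 to 889 below, both highest without A-iSC replicate 3, and at most 947 and 510 without any other library. Library-size scaling gave 8480 genes higher and 3163 lower than in P56-NPCs, 1717 genes above and 4805 below in P56-NPCs and 1219 below in P0-NPCs. Without mitochondrially encoded genes it gave 7221 higher than in P56-NPCs, 3675 below in P56-NPCs and 1493 below in P0-NPCs. The minimum of 5 FPKM, which tests fewer genes, gave 2569 higher than in ASTs, 3195 lower than in P56-NPCs, 3349 lower than in P0-NPCs, 1472 below in ASTs and 1678 above in P0-NPCs. A log2 difference beyond 1 left 1450 higher and 1539 lower than in ASTs, 1464 and 2500 for P56-NPCs, and 2132 and 2377 for P0-NPCs. An adjusted p under 0.01 left 2611 and 2756 for ASTs. Bex3 turned from -0.32 to 0.24 with library-size scaling and to 0.045 without mitochondrially encoded genes. The cause of these shifts was not tested. Of 227 described genes that were called, 182 kept their call under the other scalings, filters, pseudocount and models and without each library, the stricter thresholds not counted. Among them were the 40 genes farthest above or below, which were chosen for large distances and lack of overlap. That these 40 kept their calls is therefore no separate support.

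The replicate block gave 876 genes above and 442 below. Residuals of same-numbered samples correlated at -0.38, 0.34 and 0.43 between A-iSCs and ASTs, at -0.03, -0.09 and -0.14 between A-iSCs and P56-NPCs, and at -0.05, -0.03 and -0.10 between A-iSCs and P0-NPCs. With 3 samples per group the residuals depend on each other, so these values cannot decide whether same-numbered samples were paired.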
